A study of Mus musculus with 43 samples.

Results

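A set of 10 genes that carry out heat production in brown and beige fat cells was followed through mouse inguinal white fat, a subcutaneous depot of the groin. The set was listed by name: Ucp1, Cidea, Elovl3, Cox8b, Cox7a1, Otop1, Dio2, Kcnk3, Fabp3 and Gk. Of the 10, 9 were measured among 22622 genes, and Dio2 was not analysed here. RNA was sequenced from 43 samples in 9 groups, held in 5 tables that each compare a pair of groups. Wild-type C57BL/6J mice at P28 (postnatal day 28) were housed at 30 C (n = 4) or 22 C (n = 4). TrkA-flox Th-cre mice at P28 and 22 C (n = 4) were set against those same 4 wild-type libraries at 22 C. These controls carry neither the floxed allele nor Cre. Th-cre is active where tyrosine hydroxylase is expressed, as in sympathetic neurons. Bcl6-flox Prx1-cre mice (n = 8) and Bcl6-flox mice (n = 7) were sampled at P25 and 22 C, and the same genotypes (n = 4 each) at 9 weeks and 4 C. Prx1-cre is active in mesenchyme of the limbs and elsewhere, so it is not restricted to fat cells. At 9 weeks C57BL/6J wild types were exposed to 4 C (n = 4) or stayed at 22 C (n = 4), and how long the cold lasted is not given in the labels.

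Beige adipocytes are fat cells within white depots that switch on a thermogenic program resembling that of brown fat. Their mitochondria carry Ucp1, which lets protons back across the inner membrane without making ATP, so that burning fuel yields heat. In young mice such cells appear in the inguinal depot around weaning, and in adults they are recruited again by cold. The other genes of the set serve that program. Cox8b and Cox7a1 are tissue-restricted subunits of cytochrome c oxidase, the last enzyme of the respiratory chain. Fabp3 carries fatty acids in the cytosol, Elovl3 lengthens them, and Gk (glycerol kinase) returns the glycerol freed by lipolysis to triglyceride synthesis. Cidea sits on lipid droplets, Otop1 is a proton channel and Kcnk3 is a background potassium channel of the plasma membrane.

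Promoters are shown for the genes on which the comparisons below turn. Ucp1 and Gk changed in all 5 comparisons, and the response of Fabp3 to cooler housing differed between the wild-type comparisons at 9 weeks and P28. Each sequence is the 250 bases before the RefSeq start of the gene on GRCm38.p6 (mm10), written along the gene's strand. Capitals mark a match to a searched motif. The Ucp1 sequence is chr8:83290098-83290347 on the plus strand, that of Fabp3 is chr4:130308488-130308737 on the plus strand, and that of Gk is chrX:85776820-85777069 on the minus strand.
Ucp1: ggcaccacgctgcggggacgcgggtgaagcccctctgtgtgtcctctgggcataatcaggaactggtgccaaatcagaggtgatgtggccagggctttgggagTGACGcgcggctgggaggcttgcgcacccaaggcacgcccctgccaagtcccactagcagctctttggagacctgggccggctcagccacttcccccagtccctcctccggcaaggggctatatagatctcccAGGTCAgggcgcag
Fabp3: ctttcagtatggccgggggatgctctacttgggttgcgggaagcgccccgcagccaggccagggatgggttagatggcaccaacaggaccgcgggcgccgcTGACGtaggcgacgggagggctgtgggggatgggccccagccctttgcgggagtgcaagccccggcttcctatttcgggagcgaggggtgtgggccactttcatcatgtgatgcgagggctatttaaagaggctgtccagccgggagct
Gk: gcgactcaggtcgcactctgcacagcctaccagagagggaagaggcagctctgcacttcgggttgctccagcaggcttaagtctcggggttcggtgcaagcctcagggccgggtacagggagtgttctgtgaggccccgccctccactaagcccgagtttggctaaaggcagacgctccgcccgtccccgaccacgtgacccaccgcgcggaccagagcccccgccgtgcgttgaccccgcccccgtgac

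The motifs searched, on both strands, were AGGTCA (the letters that nuclear receptors bind), AGGTCANAGGTCA (its direct repeat with 1 base between), TGACG (a part of the cAMP response element), TTCNNNGAA (the core of Stat binding sites) and TATAAA. In Ucp1 TGACG began 147 bases and AGGTCA 14 bases before the start, and in Fabp3 TGACG began 149 bases before it. Among 27025 RefSeq promoter windows of the same length, TGACG was present in 17.9%, AGGTCA in 13.8%, TATAAA in 13% and TTCNNNGAA in 7.18%, while the direct repeat was in 0.037%. The windows of Gk, Cox8b, Cox7a1 and Otop1 held none of the 5 motifs. These matches describe letters in a short window and are not measurements of binding.

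Estimated depth ran from 3503000 to 6432000 reads per library at P28, 4995000 to 15785000 at P25, 16868000 to 30729000 for the Bcl6 genotypes at 9 weeks and 6268000 to 8861000 for wild-type adults. Values are the authors' normalized counts per gene. Each table was normalized on its own, so levels are compared within a table. All 8 measured genes of a list of 9 adipocyte markers were present in each group. Zic1, a marker of interscapular brown fat, ran from 0 to 55.3 normalized counts over all libraries. Skeletal muscle transcripts varied from 7.82 to 24380 ppm of a library's total normalized count, summed over the 13 measured of 16 listed genes. Xist, the transcript of the inactive X chromosome, was high in some libraries and near 0 in others of the same group. The exception was the table of Bcl6 genotypes at 9 weeks, where all 8 libraries were Xist-high. At P25 every library with F in its column code was Xist-high, and no library with M in its code was. Libraries labelled Prx1-cre had more total Bcl6, at 2714 ± 584 (SD, n = 8), against 825 ± 340 in Bcl6-flox libraries at P25 (SD, n = 7; log2 fold change 1.78 ± 0.23, SE, limma adjusted p = 0.000235). At 9 weeks it was again higher, by 2.54 ± 0.17 on the log2 scale (SE, limma adjusted p = 0.000209). Gene totals do not show whether deleted exons were read. In bulk tissue fewer beige cells and less of a transcript per cell cannot be told apart. Whether the samples of a group come from different animals is not labelled, and the p-values reflect only how far these samples differ.

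Housing at 30 C in place of 22 C lowered 5 of 8 tested genes of the set at P28. Ucp1, Otop1, Gk, Cox7a1 and Cox8b passed the test, and Cidea, Kcnk3 and Fabp3 did not. Among all 12283 genes tested, 3.17% were lower at 30 C by the same call (limma, Benjamini-Hochberg adjusted p under 0.05), and the median log2 fold change was -1.26 over the 8 genes and 0.0099 over all genes. Ucp1 (gene ID 22227, chr8:83290348-83298456) had 136, 59.3, 71.8 and 169 normalized counts in the libraries at 30 C, against 2194, 2121, 950 and 1767 at 22 C. Every library at 30 C lay far below every library at 22 C, where library 3 was the lowest. The log2 fold change was -4.06 ± 0.37 (SE, limma adjusted p = 0.0017). Otop1 (gene ID 21906, chr5:38277404-38304217) had 55.9, 31.5, 25.2 and 59.6 at 30 C, against 247, 290, 152 and 190 at 22 C. It fell by 2.37 ± 0.31 on the log2 scale (SE, limma adjusted p = 0.00536), the second largest fall among the 8 tested genes. The groups were again fully apart.

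Gk (gene ID 14933, chrX:85701937-85776819) had 91.1, 92.8, 42.5 and 65.0 at 30 C, against 182, 187, 223 and 204 at 22 C (log2 fold change -1.497 ± 0.23, SE, limma adjusted p = 0.0106). Cox7a1 (gene ID 12865, chr7:30184171-30186030) had 62.3, 54.8, 51.6 and 106 at 30 C, against 206, 202, 170 and 172 at 22 C (-1.49 ± 0.21, SE, limma adjusted p = 0.00785). Both genes separated the groups completely, with 30 C library 4 the nearest to the 22 C libraries for Cox7a1. For the other oxidase subunit, Cox8b (gene ID 12869, chr7:140898942-140900446), the libraries at 30 C had 179, 137, 161 and 252, against 390, 435, 313 and 330 at 22 C. Its fall of 1.03 ± 0.18 (SE, limma adjusted p = 0.0169) was the smallest of the 5. It lost the call in 4 of 8 fits that left out 1 library, with an adjusted p of up to 0.0597. Cidea (gene ID 12683, chr18:67343564-67367794) had 681, 557, 490 and 969 at 30 C, against 1547, 1360, 881 and 1068 at 22 C, and 30 C library 4 stood above 22 C library 3. Its log2 fold change of -0.86 ± 0.23 did not pass (limma adjusted p = 0.0754). It passed with an Xist indicator as covariate (-0.70 ± 0.12, SE, limma adjusted p = 0.0160), and Xist-high libraries numbered 3 at 30 C and 2 at 22 C. It also passed without 22 C library 3 (limma adjusted p = 0.0396) or 30 C library 4 (limma adjusted p = 0.0363).

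Elovl3 (gene ID 12686, chr19:46131897-46135694) was near the detection floor at this age, with 1.09, 0.9, 1.26 and 0.84 at 30 C, against 7.08, 23.3, 14.3 and 11.6 at 22 C. It did not reach the minimum of 10 in enough libraries to be tested, although no value overlapped. Kcnk3 (gene ID 16527, chr5:30588170-30625270) averaged 482 ± 39.4 at 30 C and 631 ± 201 at 22 C (SD, n = 4 each; limma adjusted p = 0.46). Fabp3 (gene ID 14077, chr4:130308738-130315463) averaged 166 ± 55.8 at 30 C and 176 ± 44.0 at 22 C (SD, n = 4 each; limma adjusted p = 0.865). Of the tested genes, 5 had groups that did not overlap, where 7.72% of all genes lay lower at 30 C without overlap. Muscle transcripts were also uneven here, at 74.3 to 3683 ppm at 30 C and 64.2 to 214 at 22 C. Macrophage markers (8 of 8 measured) summed to 6539 to 8106 normalized counts at 30 C and 4518 to 6164 at 22 C, without overlap. The sum of the 8 measured adipocyte markers also lay apart, at 19655 to 21906 ppm at 30 C and 13772 to 17033 ppm at 22 C. Their mean log2(value + 1) overlapped, at 12.69 to 12.95 at 30 C and 12.64 to 13.01 at 22 C. The part of these lists in the results was not tested beyond a covariate for the muscle list, with which 4 of the 8 genes were called. Over all genes 97 of 12283 were called with that covariate, against 547 without it. In the plot of values by library the drop is widest for Ucp1, and those of Otop1 and of the untested, low Elovl3 are also wide.

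**Figure D1:**
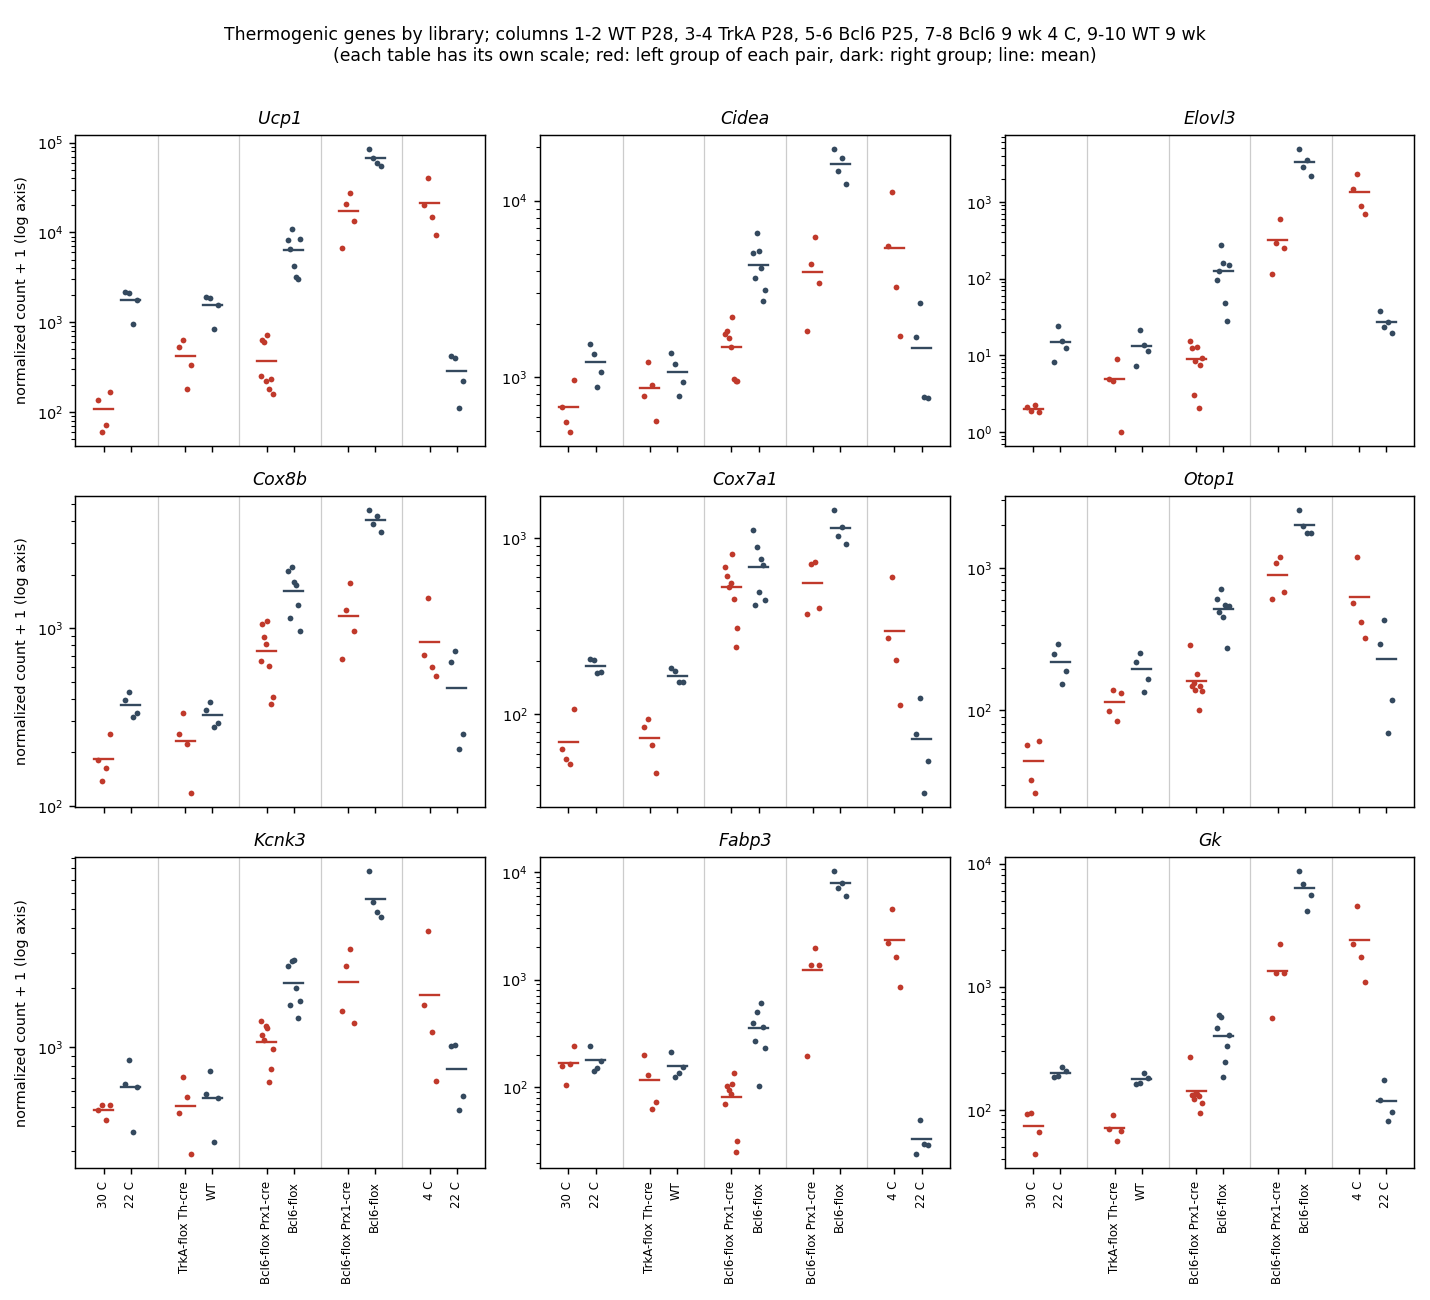
Normalized counts plus 1 (log axis) of the 9 measured genes in each library, with the left group of each pair in red, the right group in dark grey and a line at the mean. Ucp1 spans 59.3 to 85418 over all libraries, and its groups do not overlap in any of the 5 pairs.

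In TrkA-flox Th-cre mice at P28, 3 of 8 tested genes of the set were lower than in wild-type mice at the same temperature: Gk, Cox7a1 and Ucp1. Genes called lower made up 1.32% of the 11899 tested. Ucp1 had 528, 635, 180 and 334 normalized counts in TrkA-flox Th-cre libraries, against 1934, 1854, 842 and 1552 in wild-type libraries. No library overlapped, though the highest of TrkA-flox Th-cre and the lowest of wild type lay close. The log2 fold change was -1.96 ± 0.38 (SE, limma adjusted p = 0.0284). Gk had 68.5, 88.8, 54.6 and 66.7 in TrkA-flox Th-cre, against 161, 164, 198 and 180 in wild type (-1.34 ± 0.15, SE, limma adjusted p = 0.00246). It was the tightest of the 3, since no library strayed far from its group. Cox7a1 had 83.8, 93.3, 66.5 and 45.4 in TrkA-flox Th-cre, against 182, 176, 151 and 151 in wild type (-1.23 ± 0.21, SE, limma adjusted p = 0.0174). These 3 were the tested genes of the set with groups apart, where 5.57% of all genes lay lower without overlap.

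The remaining genes had overlapping groups and did not pass. Otop1 averaged 113 ± 26.3 in TrkA-flox Th-cre and 193 ± 53.0 in wild type (SD, n = 4 each), and differed by -0.75 ± 0.22 on the log2 scale (SE, limma adjusted p = 0.105). Cidea averaged 870 ± 274 and Cox8b 231 ± 89.6 in TrkA-flox Th-cre, against 1068 ± 259 and 323 ± 48.0 in wild type (SD, n = 4 each; limma adjusted p = 0.504 for Cidea and 0.283 for Cox8b). Kcnk3 and Fabp3 had log2 fold changes of -0.15 ± 0.29 and -0.55 ± 0.34 (SE, limma adjusted p = 0.834 and 0.414). Elovl3, not tested, was between 0 and 8.06 in TrkA-flox Th-cre and between 6.24 and 20.4 in wild type. The calls of this comparison were lost most easily. Leaving out wild-type library 2 or 4 left 1 call (Gk). Over all genes 101 of 12089 and 93 of 12033 were then called, against 317 of 11899 with all libraries. A covariate for the muscle list left 0 of the set. With that covariate the log2 fold changes were -1.9996 ± 0.64 for Ucp1, -1.31 ± 0.34 for Cox7a1 and -1.31 ± 0.25 for Gk (SE, limma adjusted p = 0.346, 0.299 and 0.162), and 19 of 11899 genes were called at all. With an Xist indicator as covariate Otop1 passed (-0.90 ± 0.15, SE, limma adjusted p = 0.0203). Xist was high in 1 of 4 TrkA-flox Th-cre libraries and 2 of 4 wild-type libraries. Muscle transcripts were at 263 to 1486 ppm in TrkA-flox Th-cre and 65.7 to 216 in wild type, without overlap, so the muscle list and genotype cannot be told apart. Macrophage markers were also apart, at 7009 to 8644 in TrkA-flox Th-cre and 4005 to 5416 in wild type. The sum of the adipocyte markers was apart too, at 17790 to 22729 ppm in TrkA-flox Th-cre and 13778 to 17037 ppm in wild type. Their mean log2(value + 1) overlapped, at 12.57 to 12.85 in TrkA-flox Th-cre and 12.46 to 12.83 in wild type. The part of these 2 lists was not tested. Because both P28 comparisons use the same 4 wild-type libraries, their values stand side by side and their likeness is not a result.

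Near weaning, Bcl6-flox Prx1-cre mice had lower levels of 8 of 9 genes of the set than Bcl6-flox mice. By contrast, 1.97% of the 12738 genes tested were called lower. Ucp1 ran from 160 to 720 normalized counts (median 242) in the 8 Bcl6-flox Prx1-cre libraries, against 3020 to 10891 (median 6548) in the 7 Bcl6-flox libraries. The gap between the groups was wide, and the log2 fold change of -4.18 ± 0.38 had the smallest adjusted p of the set (SE, limma adjusted p = 6.48e-06). Elovl3, the fatty acid elongase, ran from 1.06 to 14.2 (median 7.88) in Bcl6-flox Prx1-cre, against 27.1 to 269 (median 125) in Bcl6-flox. It fell by 3.77 ± 0.51 (SE, limma adjusted p = 0.000386), again with no overlap. Fabp3 ran from 24.1 to 136 (median 89.2) in Bcl6-flox Prx1-cre and from 102 to 610 (median 364) in Bcl6-flox, and fell by 2.12 ± 0.41 (SE, limma adjusted p = 0.00713).

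Otop1 ran from 101 to 287 (median 148) in Bcl6-flox Prx1-cre, against 272 to 717 (median 538) in Bcl6-flox (log2 fold change -1.69 ± 0.21, SE, limma adjusted p = 0.000178). Cidea ran from 950 to 2196 (median 1578) in Bcl6-flox Prx1-cre, against 2712 to 6512 (median 4159) in Bcl6-flox (-1.57 ± 0.22, SE, limma adjusted p = 0.000533). For Otop1 1 library, M1 of Bcl6-flox Prx1-cre, reached into the other group, while for Cidea the groups were apart. Gk ran from 92.2 to 269 (median 130) in Bcl6-flox Prx1-cre, against 183 to 591 (median 403) in Bcl6-flox (-1.45 ± 0.26, SE, limma adjusted p = 0.00375). Its overlap again came from library M1. Cox8b averaged 737 ± 273 in Bcl6-flox Prx1-cre and 1617 ± 477 in Bcl6-flox, and Kcnk3 1065 ± 244 in Bcl6-flox Prx1-cre and 2112 ± 560 in Bcl6-flox (SD, n = 8 and 7). Cox8b fell by 1.17 ± 0.25 (SE, limma adjusted p = 0.0142) and Kcnk3 by 0.98 ± 0.18 (SE, limma adjusted p = 0.00491).

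Cox7a1 was the exception, at 524 ± 190 in Bcl6-flox Prx1-cre and 687 ± 256 in Bcl6-flox (SD, n = 8 and 7; log2 fold change -0.40 ± 0.27, limma adjusted p = 0.541). The groups did not overlap for Ucp1, Cidea, Elovl3 and Kcnk3, where 0.644% of all genes were lower without overlap. All 8 calls held in each of the 15 fits that left out 1 library. Muscle transcripts overlapped between the groups, at 27.95 to 8716 ppm in Bcl6-flox Prx1-cre and 541 to 3806 in Bcl6-flox. With the muscle list as a covariate 8 genes were still called, where 335 of all 12738 genes were, against 450 without it. Macrophage markers overlapped too.

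In cold-exposed adults all 9 measured genes of the set were lower in Bcl6-flox Prx1-cre than in Bcl6-flox mice, each without overlap. There 5.46% of 13496 genes were called lower, and 10.1% lay lower without overlap. Ucp1 had 6772, 20914, 27360 and 13528 normalized counts in Bcl6-flox Prx1-cre libraries, against 85418, 67383, 58717 and 54986 in Bcl6-flox libraries. It fell by 2.12 ± 0.39 (SE, limma adjusted p = 0.00998), and library 1 of Bcl6-flox Prx1-cre was much lower than the others. Elovl3 had the largest fall of the set, with 112, 291, 595 and 250 in Bcl6-flox Prx1-cre, against 4903, 2824, 3503 and 2137 in Bcl6-flox (log2 fold change -3.59 ± 0.46, SE, limma adjusted p = 0.00259). Fabp3 followed, with 195, 1369, 1979 and 1367 in Bcl6-flox Prx1-cre, against 10153, 7092, 7942 and 6010 in Bcl6-flox (-3.05 ± 0.65, SE, limma adjusted p = 0.0169). The single value of 195 gave Fabp3 the largest standard error of the set. Fits without 1 library put its fold change between -3.42 and -2.31, the weakest without Bcl6-flox Prx1-cre library 1, and the call was lost without Bcl6-flox library 1 (limma adjusted p = 0.0542).

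Gk had 557, 1299, 2232 and 1286 in Bcl6-flox Prx1-cre, against 8698, 6809, 4137 and 5584 in Bcl6-flox (log2 fold change -2.34 ± 0.40, SE, limma adjusted p = 0.00683). Cidea had 1817, 4400, 6203 and 3418 in Bcl6-flox Prx1-cre, against 19617, 14690, 17441 and 12385 in Bcl6-flox (-2.13 ± 0.34, SE, limma adjusted p = 0.00521). In these adults Cidea and Ucp1 fell by nearly the same amount. Cox8b fell by 1.87 ± 0.27 (SE, limma adjusted p = 0.00365), Kcnk3 by 1.45 ± 0.29 (SE, limma adjusted p = 0.0136), Otop1 by 1.22 ± 0.23 (SE, limma adjusted p = 0.0114) and Cox7a1 by 1.08 ± 0.25 (SE, limma adjusted p = 0.0252). The call of Cox7a1 was lost in 4 of 8 fits without 1 library, with an adjusted p of up to 0.0745. Library order was shared across the set. Bcl6-flox Prx1-cre library 3 was the highest of its group for 9 of 9 genes and library 1 the lowest for 8, while Bcl6-flox library 1 was the highest for 9 of 9 and library 4 the lowest for 8. Bcl6-flox library 3 held muscle transcripts at 24380 ppm, against 129 to 1182 in the other libraries of its group and 11.4 to 235 in Bcl6-flox Prx1-cre. Without it 9 genes were still called. Macrophage markers summed to 18707 to 31553 in Bcl6-flox Prx1-cre and 10629 to 14299 in Bcl6-flox, without overlap, and their part in the result was not tested.

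The effect of Prx1-cre on Bcl6-flox mice was compared between 9 weeks at 4 C and P25 at 22 C. Age and temperature cannot be told apart in it, and the part of Xist class was not tested. All libraries at 9 weeks were Xist-high, but at P25 only 4 of 8 Bcl6-flox Prx1-cre and 3 of 7 Bcl6-flox libraries were. By the difference of log2 fold changes (limma estimates, t reference), 0 of 9 genes differed, where 0.304% of 12487 genes did. The smallest p of the 9 was that of Ucp1. Its fold change was less negative at 9 weeks by 2.06 ± 0.55 (SE, limma adjusted p = 0.149), and this passed without Bcl6-flox Prx1-cre library 1 of 9 weeks (adjusted p = 0.0248). Among Xist-high libraries the genotypes differed in mean log2(value + 1) of Ucp1 by -4.05 at P25 and -2.12 at 9 weeks. Among Xist-low libraries at P25 they differed by -4.21. Of the other 8 genes, 6 had a more negative value at 9 weeks, and the difference of lowest value was -0.94 ± 0.77, for Fabp3 (SE, limma adjusted p = 0.775). The plot of log2 fold changes shows Ucp1 and Elovl3 as the lowest of the set at P25, and Ucp1 among the other genes at 9 weeks.

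**Figure D2:**
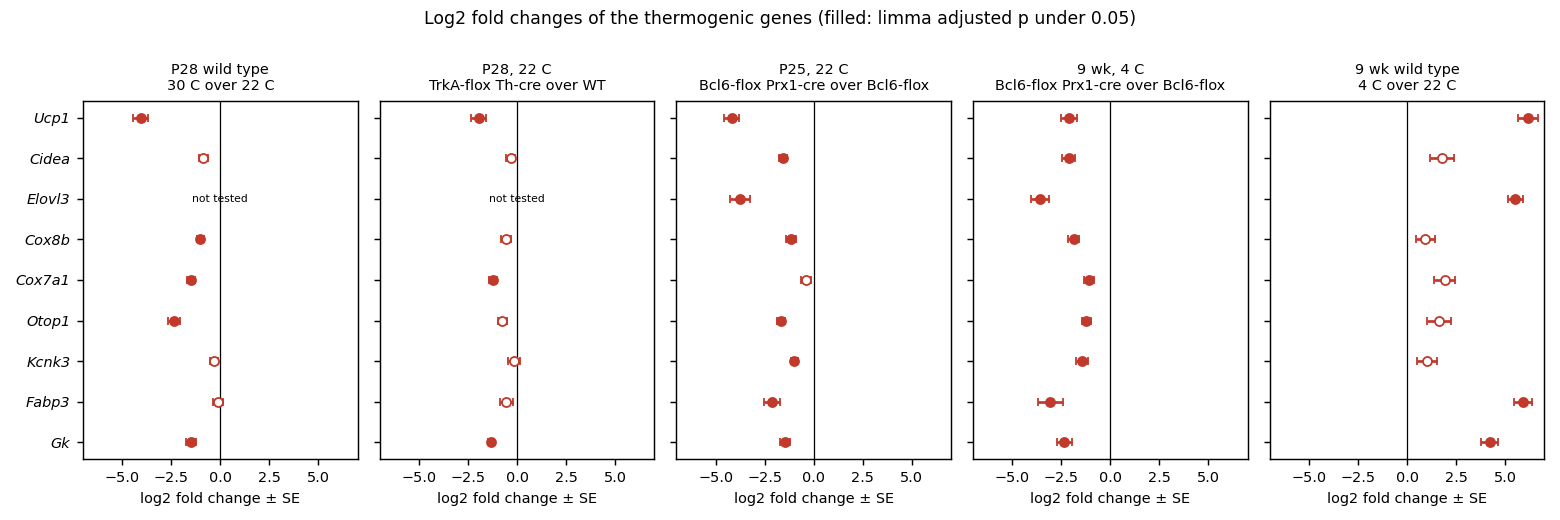
Log2 fold change with its standard error for each gene (rows) in the 5 comparisons (panels), filled where the limma adjusted p was under 0.05. At P25 Ucp1 lies at -4.18 and Cidea at -1.57, and at 9 weeks in the cold they lie at -2.12 and -2.13.

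Cold exposure of wild-type adults raised Ucp1, Fabp3, Elovl3 and Gk, 4 of the 9 measured genes. Of all 12118 genes tested, 2.03% were called higher. Ucp1 had 20254, 40150, 14800 and 9407 normalized counts at 4 C, against 423, 403, 111 and 221 at 22 C (log2 fold change 6.17 ± 0.53, SE, limma adjusted p = 0.00248). Fabp3 had 2198, 4520, 1628 and 860 at 4 C, against 23.0, 48.9, 28.6 and 28.4 at 22 C (5.92 ± 0.46, SE, limma adjusted p = 0.00248). Elovl3 had 1460, 2329, 881 and 702 at 4 C, against 36.4, 22.6, 26.5 and 18.7 at 22 C (5.52 ± 0.37, SE, limma adjusted p = 0.00177). In each the lowest library at 4 C stood more than an order of magnitude over the highest at 22 C. Gk had 2209, 4547, 1732 and 1095 at 4 C, against 119, 173, 80.1 and 95.7 at 22 C (4.21 ± 0.42, SE, limma adjusted p = 0.0041). These were also the 4 genes of the set whose groups did not overlap, where 9.16% of all genes lay higher without overlap. All 4 calls held in each of 8 fits without 1 library.

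The other 5 genes had overlapping groups and did not pass. Cidea had 5519, 11169, 3255 and 1716 at 4 C, against 1700, 2628, 771 and 761 at 22 C (log2 fold change 1.76 ± 0.61, SE, limma adjusted p = 0.126). Cox7a1 had 272, 599, 203 and 112 at 4 C, against 76.1, 123, 34.8 and 53.8 at 22 C (1.91 ± 0.54, SE, limma adjusted p = 0.0776). In both, libraries 1 and 2 were high and libraries 3 and 4 low at either temperature. Otop1, Kcnk3 and Cox8b had log2 fold changes of 1.61 ± 0.61, 1.04 ± 0.51 and 0.94 ± 0.48 (SE, limma adjusted p = 0.155, 0.254 and 0.277). In both groups libraries 1 and 2 had low Xist and libraries 3 and 4 high Xist. At 4 C both Xist-low libraries stood above both Xist-high ones for 9 of 9 genes, and at 22 C for 7 of 9, all but Elovl3 and Fabp3. The share of all genes in this order was not counted. Within a class the 4 C libraries were above those at 22 C on average for each gene. For Cidea the difference of the mean log2(value + 1) was 1.89 in Xist-low and 1.62 in Xist-high libraries. For Ucp1 it was 6.11 in Xist-low and 6.22 in Xist-high libraries. With Xist as a covariate all 9 genes were called (Cidea limma adjusted p = 0.00663), as they were with the muscle list as a covariate. The calls over all 12118 genes also grew, to 2226 with the Xist term and 1933 with the muscle term, against 542 with neither. Muscle transcripts at 22 C were at most 13.8 ppm in the Xist-low libraries and 3278 to 7842 in the Xist-high ones, so these features cannot be told apart there. Macrophage markers overlapped between the temperatures.

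Cooler housing was set side by side at the 2 ages, 4 C over 22 C at 9 weeks and 22 C over 30 C at P28. The temperatures themselves differ, and no term for the muscle list or Xist was fitted in this comparison. Of 8 genes tested in both, 2 differed in their response, Fabp3 and Gk, where 3.33% of 11618 genes did. Fabp3 had a log2 fold change of 5.92 at 9 weeks and 0.12 at P28, a difference of 5.80 ± 0.53 (SE, limma estimates, adjusted p = 0.000291). For Gk it was 4.21 at 9 weeks and 1.497 at P28, a difference of 2.71 ± 0.48 (SE, adjusted p = 0.00925). Ucp1 differed by 2.11 ± 0.65 and did not pass (SE, adjusted p = 0.092). The differences for Cidea, Kcnk3, Cox7a1, Cox8b and Otop1 ran from -0.76 ± 0.68 (Otop1) to 0.90 ± 0.65 (Cidea), with adjusted p of 0.531 or more. Elovl3 was tested at 9 weeks only. Across the 5 comparisons Ucp1 and Gk passed in 5 of 5, Elovl3 in 3 of the 3 in which it was tested, Cox7a1, Cox8b, Otop1 and Fabp3 in 3 of 5, and Cidea and Kcnk3 in 2 of 5.

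How far Ucp1 moved beside Cidea was read from the ratio of Ucp1 to Cidea within a library. Both values of a ratio come from the same library, so its scaling drops out. The ratio was described without a test, since it was chosen with the values known. At P28 its median was 0.160 at 30 C (range 0.106 to 0.199) and 1.49 at 22 C (1.08 to 1.65). In TrkA-flox Th-cre mice it was 0.554 (0.199 to 0.672), below the same wild-type libraries. At P25 it was 0.213 in Bcl6-flox Prx1-cre (0.144 to 0.360) and 1.66 in Bcl6-flox (0.772 to 2.73). Each of these pairs was fully apart. In wild-type adults it was 4.11 at 4 C (3.59 to 5.48) and 0.201 at 22 C (0.144 to 0.291). In cold-exposed adults, however, it was 4.18 in Bcl6-flox Prx1-cre (3.73 to 4.75) and 4.40 in Bcl6-flox (3.37 to 4.59), and the ranges overlapped almost entirely. The 3 groups at 4 C thus shared a ratio near 4, while Ucp1 itself fell by 2.12 on the log2 scale between the genotypes.

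**Figure D3:**
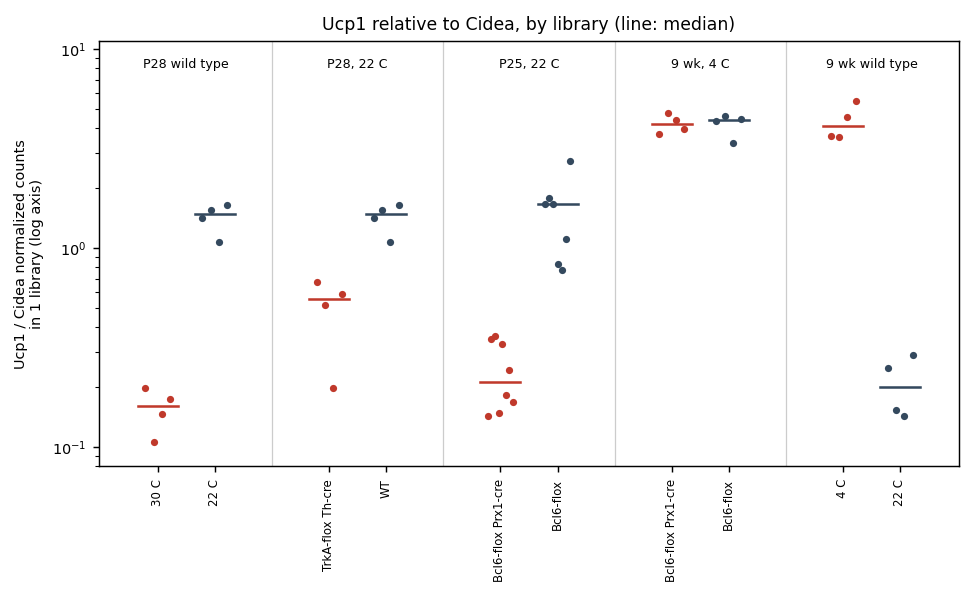
Ratio of Ucp1 to Cidea normalized counts in each library (log axis), with a line at the median, the left group of each pair in red and the right group in dark grey. The ratio separates the groups in 4 pairs, and in the pair at 9 weeks and 4 C the medians are 4.18 and 4.40.

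Of 18 related genes of the same families 14 were measured, 10 could be tested in each table, and between 0 and 4 of those passed. Over all genes, in either direction, 547 of 12283 were called at 30 C and 317 of 11899 in TrkA-flox Th-cre mice. For Bcl6-flox Prx1-cre it was 450 of 12738 at P25 and 1953 of 13496 at 9 weeks, and in wild-type adults 542 of 12118. At P28, 4 were lower at 30 C: Ucp3 by 0.85 ± 0.15, Fabp5 by 0.99 ± 0.23, Cox8a by 0.40 ± 0.09 and Cox7a2 by 0.39 ± 0.07 on the log2 scale (SE, limma adjusted p = 0.0162, 0.0498, 0.0369 and 0.0147). In TrkA-flox Th-cre mice Ucp2 was higher, at 2160 ± 204, against 1362 ± 119 in wild type (SD, n = 4 each), by 0.66 ± 0.10 on the log2 scale (SE, limma adjusted p = 0.0107), and Fabp5 was lower by 0.97 ± 0.22 (SE, limma adjusted p = 0.0475). Elovl1, which lengthens saturated and monounsaturated fatty acids in most tissues, was higher in Bcl6-flox Prx1-cre mice at both ages. It rose by 0.55 ± 0.09 at P25 (SE, limma adjusted p = 0.00203) and by 0.61 ± 0.06 at 9 weeks (SE, limma adjusted p = 0.0012), while Elovl3 fell. In wild-type adults 0 of the 10 were called, and their median log2 fold change was 0.17, against 1.91 over the set.

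The ratio of a restricted subunit to its general relative removes the scaling of a library as well. Cox8b over Cox8a was 0.174 to 0.253 at 4 C and 0.0886 to 0.139 at 22 C in wild-type adults, and Cox7a1 over Cox7a2 was 0.0726 to 0.179 at 4 C and 0.0353 to 0.0534 at 22 C. Both were fully apart although each restricted subunit alone overlapped between the temperatures. The opposite held for Cox8b at P28, where it was apart alone but Cox8b over Cox8a was 0.0750 to 0.151 at 30 C and 0.138 to 0.177 at 22 C. Cox7a1 over Cox7a2 was apart at P28, at 0.0671 to 0.133 at 30 C and 0.164 to 0.205 at 22 C. At P25 Cox7a1 over Cox7a2 overlapped, at 0.0814 to 0.189 in Bcl6-flox Prx1-cre and 0.106 to 0.231 in Bcl6-flox. In cold-exposed adults Cox8b over Cox8a was 0.049 to 0.0996 in Bcl6-flox Prx1-cre and 0.245 to 0.319 in Bcl6-flox. Gk over Gk5 was 19.99 to 81.0 at 4 C and 1.28 to 4.71 at 22 C in wild-type adults. Fabp3 over Fabp5 changed most, at 0.326 to 1.00 at 4 C and 0.00791 to 0.0202 at 22 C. As with Ucp1 over Cidea, these ratios are given with no test.

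**Figure D4:**
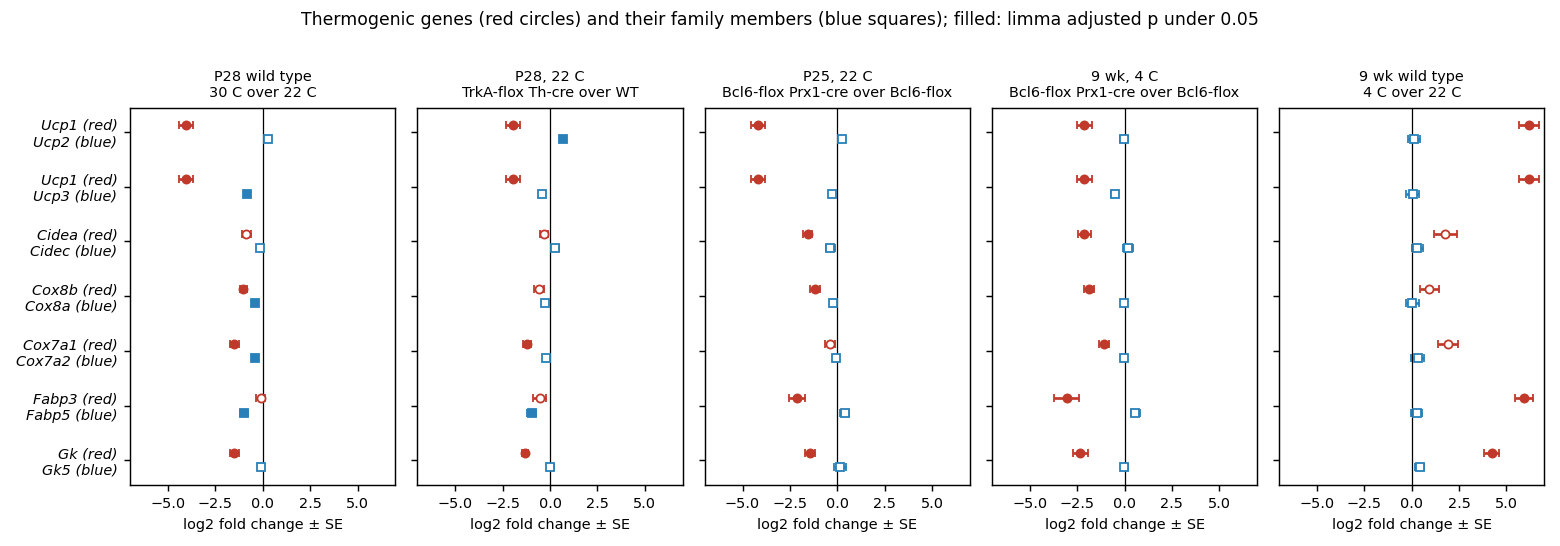
Log2 fold change with its standard error for genes of the set (red circles) and a relative of each (blue squares) in the 5 comparisons, filled where the limma adjusted p was under 0.05. In wild-type adults the relatives lie between 0.03 and 0.42, and genes of the set between 0.94 and 6.17.

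Of a wider list of 25 brown and beige fat genes 24 were measured, and most of those that passed moved the way of the set. Among all genes tested, 3.17% were called lower at 30 C and 1.32% in TrkA-flox Th-cre mice. For Bcl6-flox Prx1-cre 1.97% were called lower at P25 and 5.46% at 9 weeks, and in wild-type adults 2.03% were called higher at 4 C. At 30 C 8 of 22 tested fell and 0 rose, among them Cycs (cytochrome c) by 0.85 ± 0.08 and Cpt1b, which admits fatty acids to mitochondria, by 1.32 ± 0.21 (SE, limma adjusted p = 0.0017 and 0.0111). In TrkA-flox Th-cre mice 2 of 22 fell, Acot11 by 1.59 ± 0.17 and Acsf2 by 0.57 ± 0.10 (SE, limma adjusted p = 0.00132 and 0.0242). At P25 8 of 22 fell in Bcl6-flox Prx1-cre, with Acot11 at -2.32 ± 0.36 (SE, limma adjusted p = 0.0012), and 1 rose, the coactivator Ppargc1a at 0.56 ± 0.14 (SE, limma adjusted p = 0.0422). In cold-exposed adults 16 of 24 fell in Bcl6-flox Prx1-cre, with Slc27a2 at -3.33 ± 0.45 and Ehhadh, a peroxisomal enzyme of fatty acid oxidation, at -1.82 ± 0.22 (SE, limma adjusted p = 0.00304 and 0.00191). In wild-type adults 8 of 22 rose at 4 C and 1 fell. Cpt1b rose by 2.79 ± 0.46 and the nuclear receptor Esrrg by 1.72 ± 0.33, while Gatm, which makes the creatine precursor, fell by 1.03 ± 0.14 (SE, limma adjusted p = 0.0242, 0.033 and 0.013).

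Within groups, single libraries rose and fell together. After each group's mean was subtracted, Pearson's r with Ucp1 was averaged over the 4 tables with no shared libraries (39 libraries, 11562 genes). Cidea had the highest mean r of all genes, 0.866, followed by Cpt1b (0.841), Cox8b (0.829), Plin5 (0.818) and Otop1 (0.816). Cox7a1 was at 0.757, Kcnk3 at 0.704, Fabp3 at 0.648 and Gk at 0.532. Over the 28 pairs of 8 genes of the set the median r was 0.917 in wild-type adults, 0.880 in Bcl6 adults, 0.643 at P28 and 0.450 at P25. At P28, 23 of 28 pairs were positive, and each of the 5 negative pairs held Gk, whose r with Ucp1 was -0.06. Libraries of a group share depth, muscle content and Xist class differences with all genes, so these values are descriptions without a test.

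**Figure D5:**
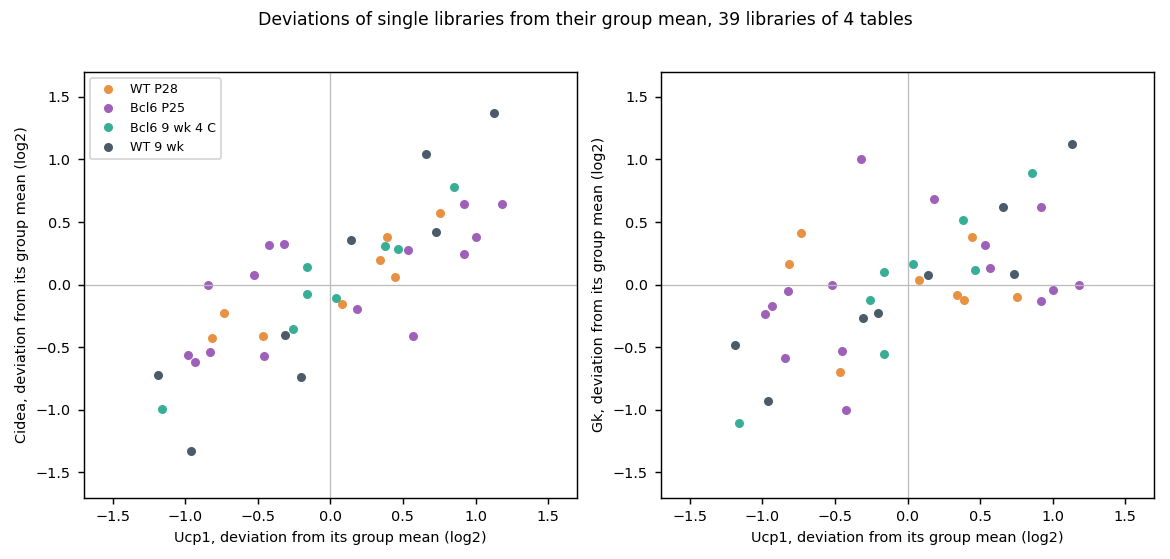
Deviation of each library from its group mean on the log2(value + 1) scale, Ucp1 on the horizontal axis and Cidea (left) or Gk (right) on the vertical axis, coloured by table. Cidea follows Ucp1 in all 4 tables (mean r 0.866). For Gk (mean r 0.532) r was -0.06 at P28, 0.36 at P25, 0.92 in Bcl6 adults and 0.91 in wild-type adults.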

How the data were processed

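RNA was extracted from flash-frozen fat and made into stranded mRNA libraries, per the labels' protocols. The deposited signal values are normalized counts by gene. Per the submitters' processing notes, kallisto (transcript quantification) and DESeq2 (scaling between libraries) were used with mm10, with versions and options not given in the sources used here. Entrez gene IDs were matched to symbols through the RefSeq gene table, and 21 of 22622 had none. Depth was estimated from the spacing of low values. Within a tolerance of 0.02, 69.9 to 75.3% of them were whole multiples of 1 library step at P25 and P28, and 7.12 to 52.5% in adults, where the estimates are rough. Whole reads were not recovered, so no count model was used. Values of the same wild-type library in the P28 tables differed by a median factor of 1.13 to 1.14.

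Tests used limma 3.58.1 in R 4.3.3 with a mean-variance trend on log2(value + 1), where changes of low genes come out too small. Genes entered a test when at least as many libraries as in the smaller group had a value of 10 or more. Benjamini-Hochberg adjustment ran over all genes tested in a table, at a threshold of 0.05. Effects from tables without shared libraries were compared by the difference of log2 fold changes, with Satterthwaite degrees of freedom. The fits were also run on simulated data with noise drawn independently for each gene. Those data lack the library differences that genes share here, so the effect of these on the calls was not tested. Column names at P25 match no single sample title, so those libraries are known by group only and are called by their column code.

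The set and the gene lists were chosen with earlier results of these data known. Named genes are the set, its relatives, Bcl6, up to 4 genes of the wider list with the smallest p in each table, and the 5 genes most like Ucp1. Ppargc1a was named after its value was seen. The check of the targeted gene in TrkA-flox Th-cre libraries is not reported here. Alternatives were other scalings, filters and pseudocounts, terms for Xist and for the muscle list, a replicate block and leaving out each library. Replicate numbers were taken to pair samples only if every same-number pair of a table correlated above 0.1 in deviations from the group means, and no table met this. Promoter windows came from the RefSeq table on GRCm38.p6, and 6 of the 9 measured genes were searched. Kcnk3 and Elovl3 had no match there, and Cidea was left out of the search. Plots were made in Python 3.11.15 by matplotlib 3.10.9.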

Additional observations from a re-analysis of the deposited data

Results flagged for a closer look

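In each of 9 groups the highest and lowest value of each of 9 genes was compared with its nearest neighbour, and 2 of these 81 combinations of gene and group stood apart by Dixon's criterion. Chance alone gives about 1 in 20. The wild-type libraries at P28 and 22 C were counted once. Both were the Bcl6-flox Prx1-cre library M1 at P25, with 287 normalized counts of Otop1 and 269 of Gk, in each case above every other library of its group.

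Response to cooler housing differed between 9 weeks (4 C over 22 C) and P28 (22 C over 30 C) for Fabp3, by 5.80 on the log2 scale, and for Gk, by 2.71. Both passed the test of the difference itself (limma estimates, adjusted p = 0.000291 and 0.00925). Age and temperature range cannot be told apart in it.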

How the results depend on the processing

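The number of genes called under other settings was as follows. In wild-type adults 9 genes in place of 4 were called with the muscle list, Xist or the replicate block as a term, where 1933, 2226 and 1666 of all 12118 genes were called, against 542 without them. At 30 C against 22 C the replicate block gave 3 in place of 5 (236 of all 12283 genes called, against 547 without it). For TrkA-flox Th-cre the muscle list gave 0 in place of 3 (19 of all 11899 genes called, with log2 fold changes of -1.9996, -1.31 and -1.31 for Ucp1, Cox7a1 and Gk), and the replicate block 3. Bcl6-flox Prx1-cre at 9 weeks had 8 in place of 9 under the block (1171 of all 13496 genes called, against 1953 without it). The Bcl6 difference between ages had 1 call with a normal reference in place of 0 (166 of all 12487 genes called, against 38). Without 1 library at a time the counts were 4 to 7 (30 C), 1 to 3 (TrkA-flox Th-cre, 1 without wild-type library 2 or 4), 8 to 8 (P25), 7 to 9 (Bcl6 at 9 weeks), 4 to 4 (wild-type adults), 0 to 1 (Bcl6 difference) and 2 to 3 (cooling difference). Where TrkA-flox Th-cre had 1, 101 of 12089 and 93 of 12033 genes were called, against 317 of 11899 with all libraries. Where the Bcl6 difference had 1, 18 of 12508 genes were called, against 38 of 12487. No paired analysis was possible at P25 because the numbers in its column codes match no sample title. Replicate numbers elsewhere did not meet the rule for pairing (same-number r from -0.66 to 0.77). In wild-type adults r was -0.26, 0.77, 0.50 and 0.51 for replicates 1 to 4. The Xist term could not be fitted for Bcl6 at 9 weeks, where all libraries were Xist-high.

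Signs turned only for values that had not passed: Fabp3 at 30 C (0.04 and 0.087 without 1 library, range -0.31 to 0.087), Kcnk3 in TrkA-flox Th-cre (0.20 with the muscle term, 0.021 and 0.097 without 1 library, range -0.37 to 0.097), the Elovl3 Bcl6 difference (-0.42 at a pseudocount of 5, and -0.053, -0.0014, -0.081, -0.01 and -0.21 without 1 library, range -0.21 to 0.59), and the cooling differences of Cox7a1 (-0.0066, range -0.0066 to 0.80) and Cox8b (0.029, 0.13, 0.21, 0.017 and 0.074, range -0.41 to 0.21) without 1 library. The cause was not tested. Of the other single-gene values, 708 of the fits without 1 library and 408 of those under other settings kept direction and side of the threshold, 15 and 7 lost the call, and 4 and 19 gained it. Depth limits Elovl3 at P28, which lay near 1 read in several libraries.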

Other observations

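As a share of a library's total normalized count, Ucp1 averaged 729 ppm in Bcl6-flox Prx1-cre libraries and 2812 ppm in Bcl6-flox libraries at 9 weeks and 4 C. In wild-type adults it averaged 2599 ppm at 4 C and 37.0 ppm at 22 C. At P25 it was 36.6 ppm in Bcl6-flox Prx1-cre and 609 ppm in Bcl6-flox libraries. At P28 it was 22.0 ppm at 30 C and 91.8 ppm in TrkA-flox Th-cre, with wild-type libraries at 22 C at 338 ppm. Tables were normalized separately, so levels of different tables are set side by side without a test.

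At P28 and 22 C, the 2 Xist-low wild-type libraries stood above the 2 Xist-high ones for 6 of 9 genes (Ucp1, Cidea, Cox8b, Cox7a1, Otop1 and Kcnk3), and below them for Gk. How many of all genes did so was not counted. At P25 the classes overlapped for 9 of 9 genes in both genotypes. Across the 9 genes, Spearman's rho between the log2 fold changes of Bcl6-flox Prx1-cre mice at P25 and at 9 weeks was 0.617. Between the temperature comparisons (30 C over 22 C at P28, 4 C over 22 C at 9 weeks) it was -0.262 over 8 genes. Both describe genes that are not independent.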
